A study of Mus musculus with 12 samples.

Results

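AP-1 is a dimeric transcription factor assembled from proteins of the FOS, JUN, ATF and BATF groups, and its transcripts were examined here in perfused mouse hearts. The 9 genes Fos, Fosb, Fosl1, Fosl2, Jun, Junb, Jund, Atf3 and Batf were taken by their symbols from the deposited expression tables, in which each symbol had 1 row, and they were 9 of 52858 listed genes. All 9 passed the filter on low values and were among the 15240 genes tested. RNA was sequenced from 12 hearts, 3 in each of 4 groups. C57-non-IR and C57-IR hearts came from C57BL/6J mice, and Slit2-non-IR and Slit2-IR hearts came from Slit2-Tg mice, which overexpress Slit2, a secreted ligand of Robo receptors. The transgene was a human Slit2 cDNA under the CMV promoter, which is not specific for the heart. It was introduced into C57 × CBA F1 oocytes, the mice were screened as heterozygotes, and the methods name C57BL/6J as the background strain. All hearts were excised and perfused ex vivo with buffer in a Langendorff system, so no circulating blood reached them during perfusion. IR hearts went through no-flow global ischemia and then reperfusion, and non-IR hearts were perfused continuously over the same period. The comparisons ask how AP-1 transcripts differ after ischemia–reperfusion (IR), and whether Slit2 overexpression goes with a different level or a different response.

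FOS proteins cannot form stable dimers with each other and pair with a JUN protein, whereas JUN proteins can also pair among themselves. The dimers bind the sequence TGACTCA, called the TPA response element (TRE), or the cAMP response element (CRE), TGACGTCA. Most of these genes are immediate-early genes, whose transcription starts within minutes of a stimulus and needs no newly made protein, and in the heart they are known to respond to stretch, hypertrophic stimuli and ischemic stress. Atf3 encodes a stress-induced member of the ATF/CREB family, and Batf encodes a small member without a transactivation domain that is known mainly from lymphocytes.

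The sequences just upstream of Fos, Jun and Junb are shown, which are the bases next to the RefSeq starts of genes whose RNA is described below. They were also chosen because no GENCODE M21 exon overlaps them. They are the 250 bases before the RefSeq start on GRCm38.p6, and capitals mark the letters TGACG, TGACATCA or CCAAT. Fos lies on the plus strand (chr12:85473640-85473889), and Jun (chr4:95052223-95052472) and Junb (chr8:84978749-84978998) lie on the minus strand.
Fos: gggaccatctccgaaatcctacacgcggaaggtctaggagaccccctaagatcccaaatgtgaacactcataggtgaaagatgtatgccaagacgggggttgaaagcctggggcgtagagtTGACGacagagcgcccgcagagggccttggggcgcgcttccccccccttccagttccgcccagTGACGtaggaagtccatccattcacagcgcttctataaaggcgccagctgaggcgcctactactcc
Jun: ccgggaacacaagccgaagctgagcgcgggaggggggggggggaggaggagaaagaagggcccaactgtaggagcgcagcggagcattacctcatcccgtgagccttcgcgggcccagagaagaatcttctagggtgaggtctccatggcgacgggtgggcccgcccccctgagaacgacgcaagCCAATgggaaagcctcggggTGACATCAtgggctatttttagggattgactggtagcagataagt
Junb: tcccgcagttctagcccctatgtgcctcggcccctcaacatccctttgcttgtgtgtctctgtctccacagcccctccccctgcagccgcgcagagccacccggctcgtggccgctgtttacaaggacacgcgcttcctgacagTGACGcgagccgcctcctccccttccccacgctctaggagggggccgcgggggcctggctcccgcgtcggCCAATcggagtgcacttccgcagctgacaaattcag
RefSeq promoters were found for 8 of the 9 genes, all but Fosl1. Those of Fosb, Fosl2, Atf3 and Batf overlapped exons of the same gene, and these, like that of Jund, were searched but are not printed. The search covered both strands of the same 250 bases in 32851 promoters. The full TRE, TGACTCA, was in 0 of the 8 promoters and in 4.46% of all promoters, and the full CRE, TGACGTCA, was in 0 and in 1.55%. Jun carried the variant TGACATCA, which began 45 bases before the start and was found in 2.93% of all promoters. The CArG box, the binding sequence of serum response factor, was in 0 of the 8 windows and in 1.47% of all, and TTCNNNGAA, the sequence bound by STAT proteins, was in 0 and in 7.02%. The CCAAT box lay 65 bases before the start of Jun and 36 bases before that of Junb, and 33.8% of all promoters held it. The shorter run TGACG, which is contained in the CRE and was added after the sequences had been seen, was in 5 of 8 windows (Fos, Fosb, Junb, Atf3 and Batf) and in 17.8% of all promoters. In Fos it occurred at 129 and at 66 bases before the start. These matches describe the letters in these windows, and no binding was measured. Bases further upstream were not searched. The RefSeq start of Jund was chr8:70697739, upstream of its start at 70698949 in the deposited annotation. For Junb, on the minus strand, the RefSeq start was 84978748, and the deposited annotation ends the gene at 84978718. For neither were the bases after the RefSeq start found in its GENCODE M21 transcripts, so these windows may not adjoin the RNA measured. The RefSeq start of Atf3, also on the minus strand, was 191183333, inside the gene, whose deposited span reaches to 191218039. Bases after that start were found in a GENCODE M21 transcript of Atf3, but its window does not lie at the start of the deposited span.

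Depth was 16601154 to 24841291 reads on genes per library, and mitochondrial genes took 19.7% to 26.0% of them. The 6 cardiomyocyte markers Myh6, Actc1, Tnnt2, Tnni3, Myl2 and Ryr2 were high in all libraries. Their sum was highest in replicate 1 of every group, at 16084 to 18519 FPKM, against 12111 to 14715 FPKM in the other libraries. The fibroblast and macrophage sums were lowest in replicate 1 of every group. The 4 endothelial, 4 fibroblast and 4 macrophage markers overlapped between non-IR and IR libraries. The 4 neutrophil markers summed to at most 1.42 FPKM, and red cell, adipose and lung markers were low, at up to 49.0, 3.95 and 12.2 FPKM in sum. No tested gene of any marker list was called in the pooled limma test, at adjusted p under 0.05, and none of the lymphocyte markers passed the filter. The 3 atrial markers Myl7, Sln and Myl4 summed to 1445 FPKM in Slit2-IR replicate 1 and 146 in C57-IR replicate 2 but to at most 16.6 FPKM in the other libraries. Counts without these 2 libraries are given beside the results. The mouse Slit2 gene had mean levels of 0.178 to 0.350 FPKM in the 4 groups, and how reads of the human transgene were mapped is not stated, so it does not check the genotype labels.

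Fosl2 and Atf3 were the AP-1 genes with the clearest difference after IR. Both rose about as much in Slit2-Tg as in C57BL/6J hearts, Fosl2 to 4.92 times and 5.01 times its non-IR mean FPKM, and Atf3 to 6.55 times and 6.04 times. Over both genotypes together, 6 of the 9 genes rose at an adjusted p under 0.05, where 2.34% of all tested genes did, and the means of Fos, Fosb and Jund were also higher after IR but did not pass. None of the 9 passed a test between genotypes. Levels are the FPKM of the authors, that is fragments scaled to exon length and to a size factor for each library. Tests used log2(FPKM + 1) in limma, with Benjamini-Hochberg adjustment over all tested genes. In RNA from whole tissue, fewer cells of a type and less RNA per cell cannot be told apart. The plot of FPKM by library shows the values of every heart.

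**Figure D1:**
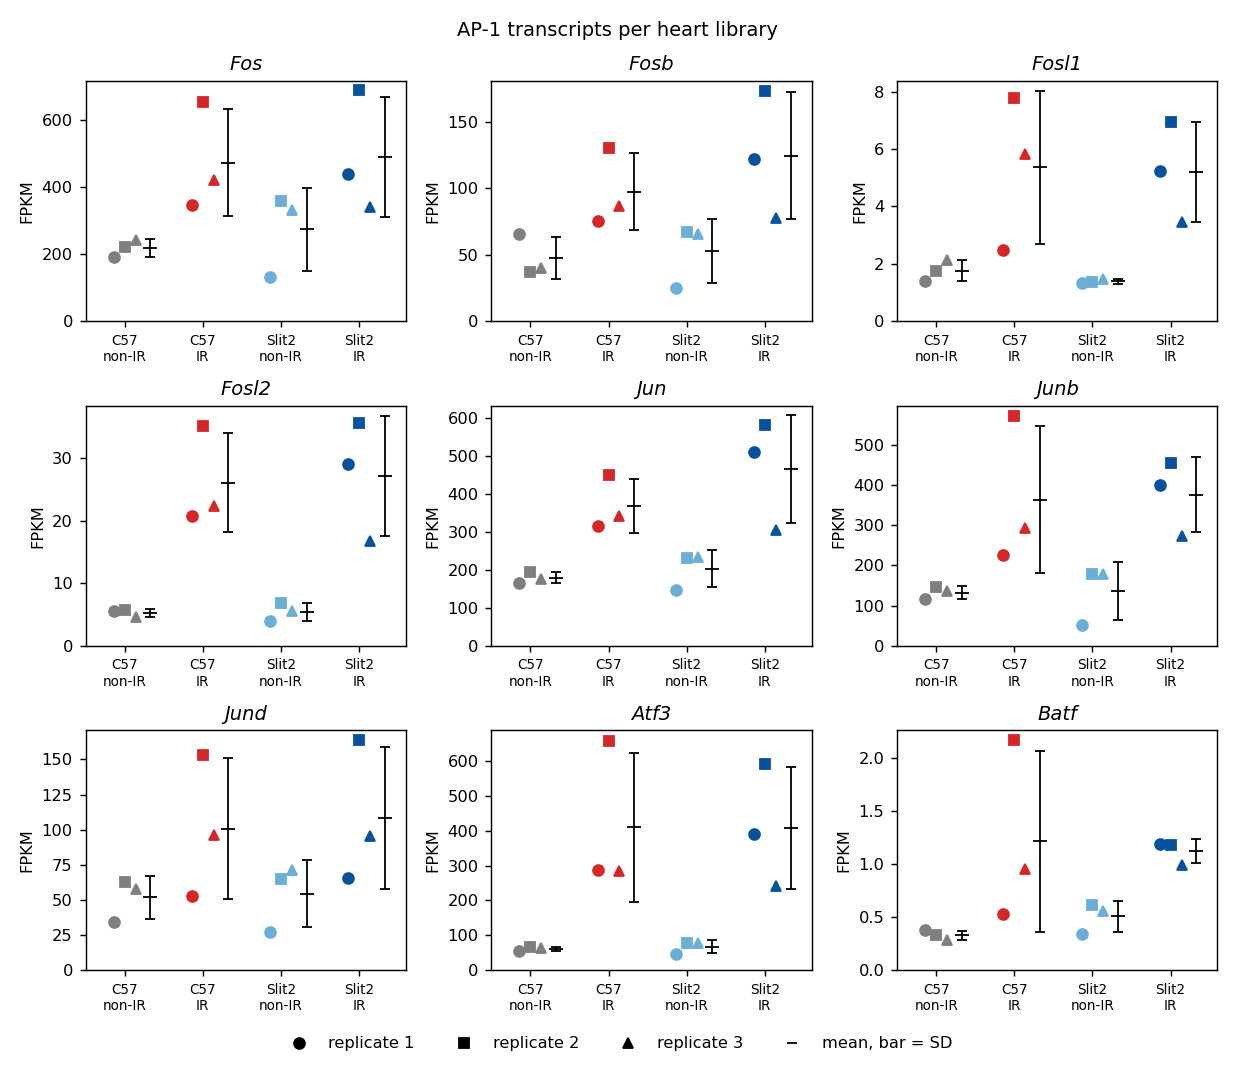
FPKM of the 9 AP-1 genes in each of the 12 heart libraries, with a panel for each gene and its own axis starting at 0. Symbols are replicates 1 to 3, and the black mark with its bar is the group mean with the SD (n = 3). For Fosl2 and Atf3 every IR library lies above every non-IR library, at 16.7 to 35.7 against 3.97 to 6.79 FPKM and at 242 to 656 against 45.9 to 78.4 FPKM.

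Within the FOS family, Fosl2, which encodes FRA-2, rose the most. Its level was 5.60, 5.74 and 4.57 FPKM in C57-non-IR replicates 1, 2 and 3 and 20.7, 35.2 and 22.4 FPKM in C57-IR replicates 1, 2 and 3. In Slit2-non-IR replicates 1, 2 and 3 it was 3.97, 6.79 and 5.50 FPKM, and in Slit2-IR replicates 1, 2 and 3 it was 29.0, 35.7 and 16.7 FPKM. The lowest IR library, Slit2-IR replicate 3, was still above the highest non-IR library, Slit2-non-IR replicate 2. The difference in log2(FPKM + 1) was 2.07 in C57BL/6J hearts (SE 0.27, adjusted p = 0.0143) and 2.09 in Slit2-Tg hearts (SE 0.27, adjusted p = 0.0140). Pooled over genotypes it was 2.08 (SE 0.19, adjusted p = 0.000499). The gene spans chr5:32135801-32157842 on GRCm38.

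Fos, the founding member of the family, had 190.1, 221 and 242 FPKM in C57-non-IR replicates 1, 2 and 3 and 345, 653 and 422 FPKM in C57-IR replicates 1, 2 and 3. Its level was 132, 359 and 331 FPKM in Slit2-non-IR replicates 1, 2 and 3, and 438, 689 and 342 FPKM in Slit2-IR replicates 1, 2 and 3. The C57BL/6J groups did not overlap, whereas Slit2-IR replicate 3 lay below Slit2-non-IR replicate 2. Fos was thus abundant in hearts that had been perfused without ischemia, and its mean after IR was 2.17 times that of non-IR hearts in C57BL/6J and 1.79 times in Slit2-Tg. The pooled difference was 0.99 on the log2 scale (SE 0.27, adjusted p = 0.0754) and did not pass. Neither did the differences within C57BL/6J (1.07, adjusted p = 0.367) and within Slit2-Tg hearts (0.90, adjusted p = 0.394), and the latter was 0.44 without Slit2-non-IR replicate 1.

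Fosb, a further rapidly induced FOS gene, was between 36.9 and 65.2 FPKM in C57-non-IR hearts and between 75.1 and 130.2 in C57-IR hearts, and it ranged from 24.6 to 67.2 in Slit2-non-IR and from 77.6 to 173 in Slit2-IR hearts. Every IR library was above every non-IR library, but the pooled difference of 1.16 (SE 0.29) had an adjusted p of 0.0530. Fosl1, which encodes FRA-1, was expressed at a much lower level, with 41 to 64 reads per non-IR library and 74 to 285 per IR library. It was at 1.41, 1.74 and 2.13 FPKM in C57-non-IR replicates 1, 2 and 3 and at 2.48, 7.78 and 5.81 FPKM in C57-IR replicates 1, 2 and 3. The Slit2-non-IR libraries were close together at 1.33, 1.35 and 1.48 FPKM, and the Slit2-IR libraries had 5.22, 6.93 and 3.44 FPKM. The IR and non-IR values did not overlap, and the pooled difference of 1.23 (SE 0.21, adjusted p = 0.00888) passed. In the single genotypes Fosl1 did not pass (adjusted p = 0.170 in C57BL/6J and 0.0774 in Slit2-Tg).

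Among the JUN genes, Jun and Junb rose in the pooled test and Jund did not pass it. Jun, the main partner of FOS proteins, was at 167, 195 and 177 FPKM in C57-non-IR replicates 1, 2 and 3 and at 317, 451 and 341 FPKM in C57-IR replicates 1, 2 and 3. In Slit2-non-IR replicates 1, 2 and 3 it was at 146, 231 and 233 FPKM, and in Slit2-IR replicates 1, 2 and 3 at 511, 583 and 306 FPKM. All IR libraries exceeded all non-IR libraries. Its pooled difference was 1.10 (SE 0.18, adjusted p = 0.00646), with adjusted p of 0.120 in C57BL/6J and 0.0693 in Slit2-Tg hearts alone. Jun has no intron, and the files give it the same exonic length and span (chr4:95049034-95052222), so spliced and unspliced RNA cannot be distinguished in its value.

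Junb, which forms dimers that activate transcription less strongly than those of Jun on many targets, had 116, 146 and 135 FPKM in C57-non-IR replicates 1, 2 and 3 and 226, 571 and 294 FPKM in C57-IR replicates 1, 2 and 3. It had 52.3, 179 and 178 FPKM in Slit2-non-IR replicates 1, 2 and 3 and 399, 454 and 272 FPKM in Slit2-IR replicates 1, 2 and 3. Slit2-non-IR replicate 1 held less than any other library, and the IR and non-IR libraries did not overlap. The pooled difference was 1.48 (SE 0.32, adjusted p = 0.0298), and within a genotype it was 1.34 (adjusted p = 0.328) and 1.62 (adjusted p = 0.155), the latter being 1.04 without Slit2-non-IR replicate 1. Junb shares 351 bases with Prdx2 on the opposite strand, whose level was 86.0 to 113 FPKM in all libraries, and whether the counting used strand is not stated, so its value is uncertain to that extent. Jund, the JUN member known for steady expression in resting cells, was at 34.6 to 62.7 FPKM in C57-non-IR, 53.0 to 153 in C57-IR, 27.3 to 71.5 in Slit2-non-IR and 65.8 to 164 in Slit2-IR hearts. Both genotypes had overlapping IR and non-IR values, and the pooled difference of 0.93 (SE 0.33) had an adjusted p of 0.178.

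Atf3 showed the largest difference of the 9 genes. It had 56.0, 66.4 and 65.2 FPKM in C57-non-IR replicates 1, 2 and 3 and 288, 656 and 284 FPKM in C57-IR replicates 1, 2 and 3. In Slit2-non-IR replicates 1, 2 and 3 it had 45.9, 78.4 and 78.0 FPKM, and in Slit2-IR replicates 1, 2 and 3 390.3, 591 and 242 FPKM. The highest library after IR, C57-IR replicate 2, was far above the others of its group, and even the lowest IR library exceeded each non-IR library. The difference was 2.58 in C57BL/6J (SE 0.37, adjusted p = 0.0230), 2.53 in Slit2-Tg (SE 0.37, adjusted p = 0.0236) and 2.55 in the pooled test (SE 0.26, adjusted p = 0.000844). The gene spans chr1:191170296-191218039 on GRCm38.

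Batf was near the detection limit, with 7 to 20 reads per non-IR library and 13 to 60 per IR library. Its mean was 0.331 ± 0.0441 FPKM in C57-non-IR, 1.21 ± 0.848 in C57-IR, 0.507 ± 0.145 in Slit2-non-IR and 1.12 ± 0.114 in the Slit2-IR group (SD, n = 3). The pooled difference of 0.58 (SE 0.14, adjusted p = 0.0495) passed narrowly, and C57-IR replicate 1, at 0.530 FPKM, lay below 2 of the Slit2-non-IR libraries. On the log2(FPKM + 1) scale this difference is understated, since the values are around or below the added 1. The 4 lymphocyte markers Cd3e, Cd3g, Cd79a and Ms4a1 summed to at most 0.216 FPKM in any library, with Ms4a1 at 0 throughout C57-non-IR and Slit2-IR hearts. Which cells the Batf RNA came from was not tested.

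In C57BL/6J hearts, 2 of the 9 genes were called higher after IR at an adjusted p under 0.05, Fosl2 and Atf3, where 0.407% of all tested genes were. At an unadjusted p under 0.05 there were 8, all but Jund, against 4.55% of all genes, and the same 8 had groups that did not overlap, against 6.75%. These calls changed with single libraries. The count was 0 without any single C57-non-IR library, without C57-IR replicate 2 or without C57-IR replicate 3, and it was 4 without C57-IR replicate 1 (Fosl1, Fosl2, Atf3 and Batf). It was also 0 with both libraries that held atrial RNA left out, when the difference was 1.84 for Fosl2 (adjusted p = 0.0938) and 2.18 for Atf3 (adjusted p = 0.103). The median difference of the 9 genes was 1.07, and over all tested genes it was 0.00.

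In Slit2-Tg hearts the count was again 2, Fosl2 and Atf3, against 0.446% of all genes. With the replicate number as a block it was 4, as Jun (adjusted p = 0.0369) and Jund (adjusted p = 0.0377) were added. At an unadjusted p under 0.05 there were 8 higher genes, all but Jund, against 6.15%. The groups did not overlap for 7 genes, all but Fos and Jund, against 8.65%. Without Slit2-non-IR replicate 1 or 3, or without Slit2-IR replicate 1 or 2, the count was 0, without Slit2-non-IR replicate 2 it was 1 (Fosl2), and without Slit2-IR replicate 3 it was 3 (Fosl2, Jun and Atf3). Without C57-IR replicate 1 or 2, which enter only through the shared spread, Fosl1 joined and it was also 3. With both libraries that held atrial RNA left out it stayed at 2. The median difference of the 9 genes was 1.29, beside 0.01 over all tested genes.

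The pooled IR effect is the mean of the effects in both genotypes and reuses the same libraries, so it is a more precise estimate and not a further experiment. Here 6 genes were called higher (Fosl1, Fosl2, Jun, Junb, Atf3 and Batf) against 2.34% of all genes, and 0 were lower. All 9 were higher at an unadjusted p under 0.05, against 7.93%. For 6 genes (Fosb, Fosl1, Fosl2, Jun, Junb and Atf3) all 6 IR libraries exceeded all 6 non-IR libraries, against 2.23%. Fosl1, Fosl2, Jun and Atf3 were called in each of the 19 alternative fits. Junb was called in 11 of 19 and Batf in 6 of 18, and these calls depended on single libraries and on the processing. Both were lost without any single C57-non-IR library or without Slit2-IR replicate 1 or 2, when the count was 4, and Junb alone was lost without C57-IR replicate 2, when it was 5. Batf alone was lost without C57-IR replicate 3 or any single Slit2-non-IR library (5), it gave way to Fosb without Slit2-IR replicate 3 (6), and without C57-IR replicate 1 Fosb was added (7). With both libraries that held atrial RNA left out it was 5, all of the 6 but Junb. With the replicate number as a block, whose meaning the labels do not give, all 9 were called. Fos (adjusted p = 0.0223), Fosb (adjusted p = 0.0482) and Jund (adjusted p = 0.00403) were added.

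**Figure D2:**
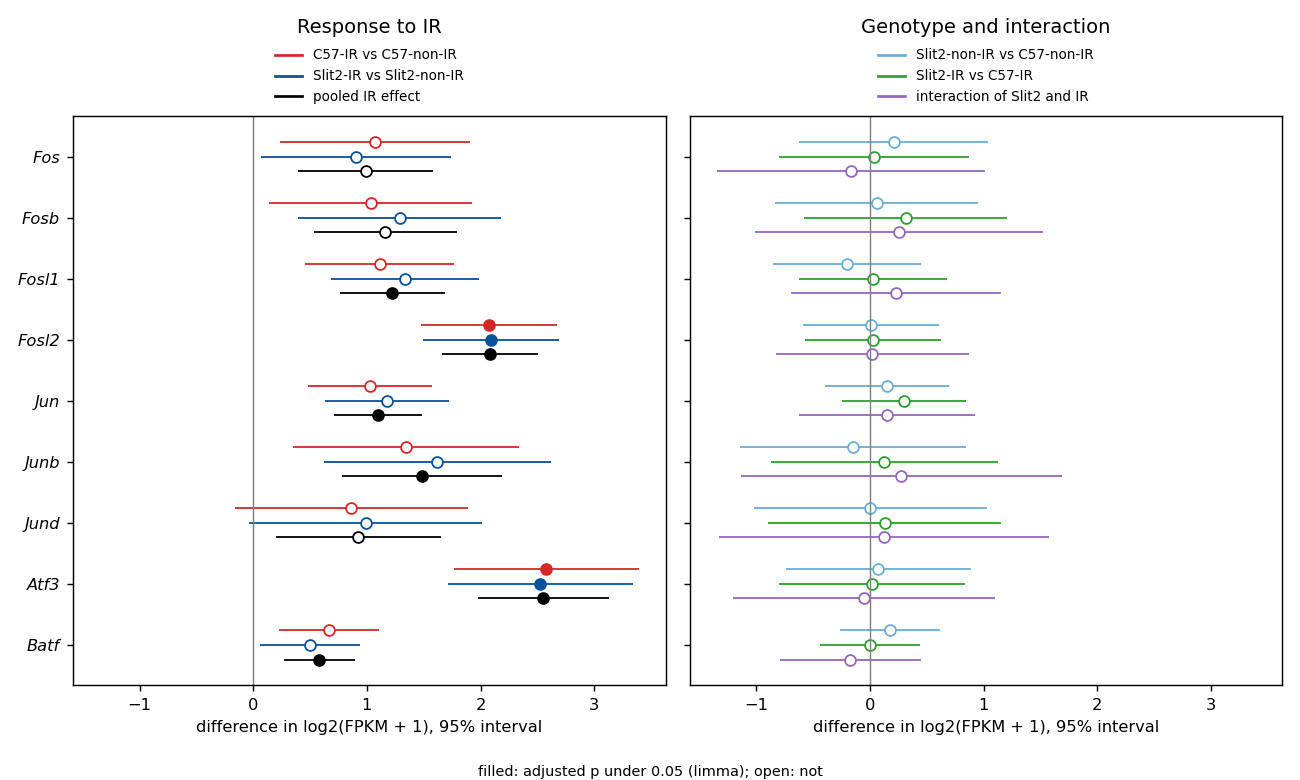
Differences in log2(FPKM + 1) for the 9 AP-1 genes with 95% intervals from limma, for the response to IR on the left and for the genotype contrasts and the interaction on the right. Filled points have an adjusted p under 0.05, which Fosl2 and Atf3 reach in each IR contrast, and every interval on the right includes 0.

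Slit2-Tg hearts did not differ detectably from C57BL/6J hearts in any of the 9 genes. Without IR, 0 of the 9 were called at an adjusted p under 0.05 in limma, against 0.0394% of all genes, and 0 at an unadjusted p under 0.05, against 3.19%. The differences ran from -0.20 for Fosl1 to 0.21 for Fos. Between Slit2-IR and C57-IR hearts the counts were likewise 0 and 0, against 0.0459% and 3.16% of all genes. All 9 differences in log2(FPKM + 1) were above 0, as were 49.9% of those of all tested genes. They reached 0.30 for Jun (95% interval -0.25 to 0.85) and 0.31 for Fosb (-0.58 to 1.21). By mean FPKM, Slit2-IR hearts were lower for Fosl1 (0.970 times C57-IR), Atf3 (0.996 times) and Batf (0.923 times) and higher for the other genes. Groups of different genotype overlapped for each of the 9 genes, where 9.2% of all genes in non-IR hearts and 6.47% in IR hearts did not overlap. limma-voom on the recovered reads also called 0 of the 9 in both comparisons.

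The interaction, which is the IR effect in Slit2-Tg minus that in C57BL/6J hearts, was tested directly. The 9 values lay between -0.17 (Batf and Fos) and 0.28 (Junb), and 0 were called at an adjusted p under 0.05 (0.0% of all genes) or at an unadjusted p under 0.05 (1.86% of all genes). For Fosl2 it was 0.02 (95% interval -0.82 to 0.87) and for Atf3 -0.05 (-1.20 to 1.10). With 3 hearts a group these intervals are wide and hold sizeable differences in either direction. limma-voom called 0 of the 9 as well.

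IR hearts also held a different mixture of AP-1 transcripts. FPKM is per length, so levels can be set beside each other. The 9 genes summed to 433 to 988 FPKM in the 6 non-IR libraries and 1329 to 2698 FPKM in the 6 IR libraries. Atf3 made up 7.94% to 10.6% of this sum in non-IR and 17.8% to 24.7% in IR libraries. The 4 FOS genes together took 36.0% to 43.9% and 30.3% to 34.6%, so neither share overlapped between non-IR and IR hearts. The 3 JUN genes took 48.0% to 54.9% in non-IR and 44.2% to 49.8% in IR libraries, which overlap. These shares describe the same values as the folds and were not tested.

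The order of the levels shifted in the same way, judged by whether the ranges of mean ± SD of neighbours overlapped. In C57-non-IR hearts Fos (218 ± 26.3 FPKM, SD, n = 3), Jun (179 ± 14.3) and Junb (132 ± 15.3) led, with Fos and Jun overlapping and Junb apart. Atf3 (62.5 ± 5.67), Jund (51.8 ± 15.1) and Fosb (47.2 ± 15.6) followed and overlapped, and Fosl2, Fosl1 and Batf came last, each apart from the next. In C57-IR hearts Fos (473 ± 160.2), Atf3 (409 ± 214), Jun (369.8 ± 71.2) and Junb (364 ± 183) all overlapped, ahead of Jund (101 ± 50.1) and Fosb (97.4 ± 29.1). The Slit2-Tg groups had the same order of means in non-IR hearts, with Fos at 274 ± 124, Jun at 203 ± 49.6, Junb at 136 ± 72.7 and Atf3 at 67.5 ± 18.6 FPKM, where the wider spread made each of these overlap the next. In Slit2-IR hearts Fos (489.7 ± 179), Jun (467 ± 143), Atf3 (408 ± 175) and Junb (375 ± 93.1) again overlapped.

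Within a library, Atf3 was 0.219 to 0.349 times as abundant as Fos without IR and 0.672 to 1.005 times as abundant after IR. Fosl2 was 0.0166 to 0.0301 times as abundant as Fos without IR and 0.0490 to 0.0663 times after IR. Neither ratio overlapped between non-IR and IR libraries. The ratio of Fosb to Fos (0.164 to 0.343 and 0.199 to 0.279) and that of Junb to Jun (0.358 to 0.775 and 0.713 to 1.27) did overlap. The stacked bars of level and share show the change in mixture.

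**Figure D3:**
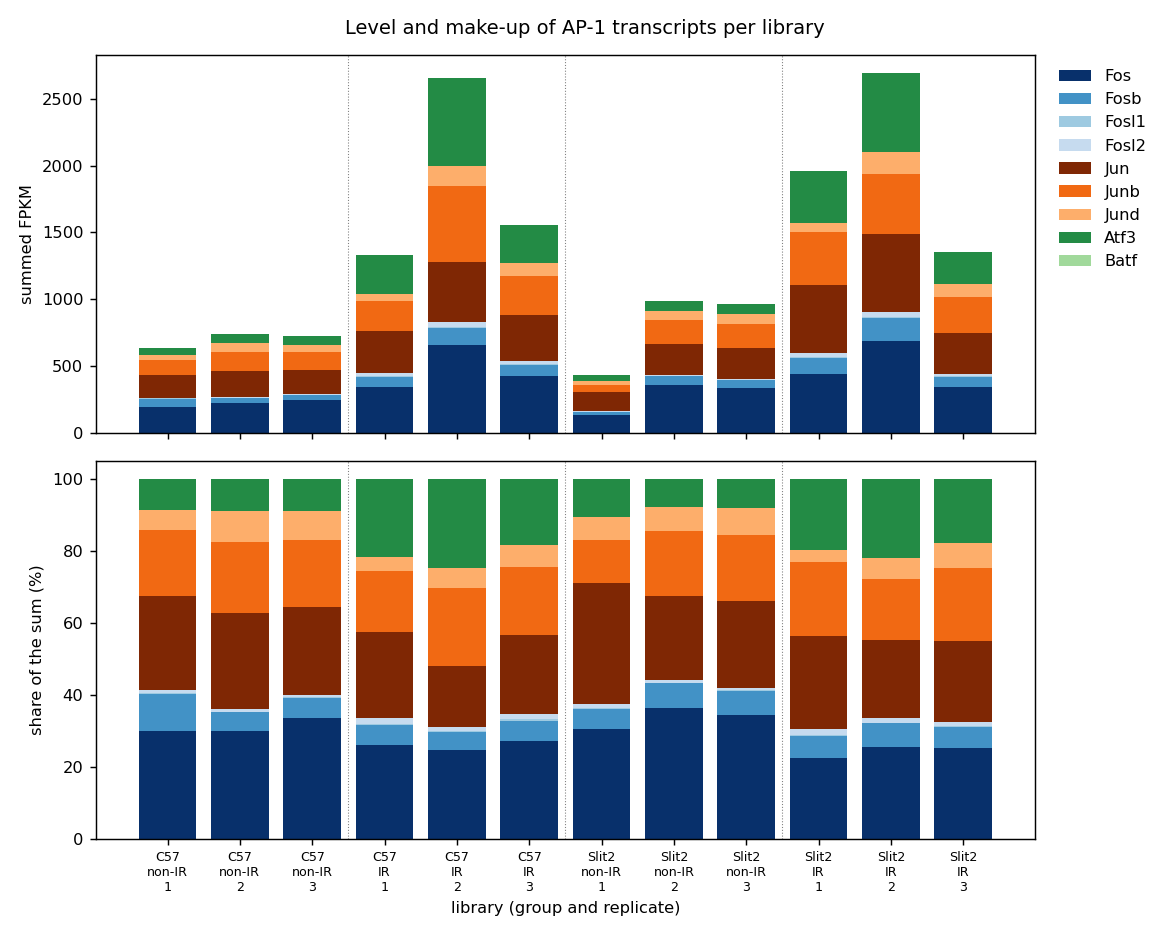
Summed FPKM of the 9 AP-1 genes per library (top) and the percentage of that sum taken by each gene (bottom), with the genes in the same order in every bar. The Atf3 band widens from 7.94% to 10.6% in the 6 non-IR libraries to 17.8% to 24.7% in the 6 IR libraries, while Fosl1, Fosl2 and Batf stay thin.

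The 9 genes moved together from heart to heart inside the groups. C57-IR replicate 2 was the highest of its group for all 9 genes, and C57-IR replicate 1 was the lowest for 8. Slit2-non-IR replicate 1 was the lowest of its group for all 9. Slit2-IR replicate 2 was the highest for 8 and replicate 3 the lowest for 8. In C57-non-IR hearts the order was less even, since replicate 1 was lowest for 6 genes but highest for Fosb and Batf. Replicate 1 was thus the lowest for most genes in every group but Slit2-IR, where it was lowest for Jund alone. It also had the highest cardiomyocyte marker sum of each group, and a link between the 2 was not tested. Over the 12 libraries the Pearson correlation of log2(FPKM + 1) between 2 of the genes was 0.748 to 0.992 (median 0.885, 36 pairs), highest for Fosl2 with Atf3. For deviations from the group means it was 0.461 to 0.957 (median 0.762), highest for Fos with Junb. The points share libraries, depth and scaling, and the correlations are given as a description.

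**Figure D4:**
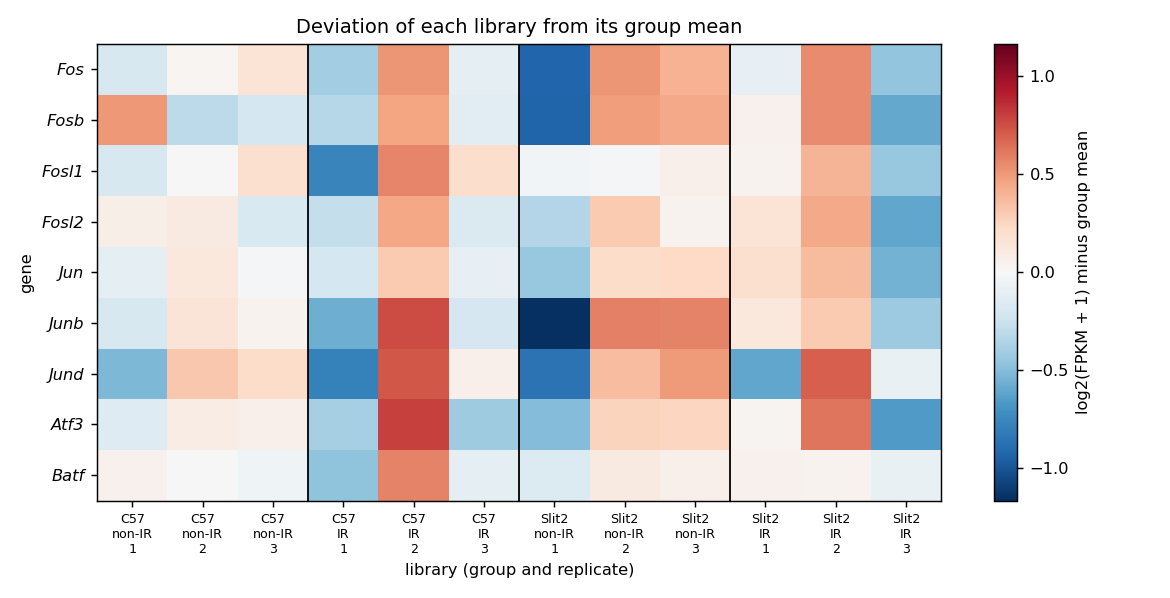
Log2(FPKM + 1) of each AP-1 gene in each library minus the mean of its group, from blue (below the mean) to red (above), with black lines between the groups. The column of C57-IR replicate 2 is red and that of Slit2-non-IR replicate 1 is blue or near white for all 9 genes.

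The genes whose log2(FPKM + 1) followed each AP-1 gene most closely over the 12 libraries are given with their Pearson correlation, as a description. For Fosl2 they were the chaperone cofactor gene Dnajb1 (r = 0.988), the nuclear receptor gene Nr4a3 (0.986) and Myc (0.983). For Atf3 they were Cfap43 (0.989), the MAP kinase phosphatase gene Dusp5 (0.985) and Myc (0.983). Jun was followed by Dusp4 (0.977), Cfap43 (0.976) and Ier5 (0.974), and Junb by the cytokine-signaling inhibitor gene Socs3 (0.984), Nr4a1 (0.984) and Zfp36 (0.983), which encodes an mRNA-destabilizing protein. Fos was closest to Nfkbiz (0.974), Btg2 (0.973) and Zfp36 (0.969), and Fosb to the zinc finger genes Egr1 (0.969), Egr2 (0.949) and Egr3 (0.948). The genes nearest to Fosl1 were Slc16a3 (0.977), Pde12 (0.974) and Actg1 (0.974). Jund was followed by Rab7b (0.970), Klf11 (0.961) and Morf4l2 (0.955), and Batf by Bcr (0.976), Mmp13 (0.962) and Crem (0.960).

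Other basic leucine zipper (bZIP) factors were compared by the family column of the deposited tables, which places all 9 genes in the bZIP family. Of the 34 other bZIP genes tested, 5 rose in the pooled test (14.7%) and 0 fell, and their median difference was 0.11, beside 1.16 for the 9 AP-1 genes. The 5 were Maff (2.26, SE 0.32, adjusted p = 0.00417), Nfil3 (1.42, SE 0.25, adjusted p = 0.00953), Mafk (1.15, SE 0.20, adjusted p = 0.0102), Crem (0.70, SE 0.11, adjusted p = 0.00687) and Creb5 (0.44, SE 0.07, adjusted p = 0.00600). Of 940 tested genes of other transcription factor families, 35 rose (3.72%) and 62 fell. Nfil3 and Creb5 were chosen after their values were seen.

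Among 10 further dimer partners and small MAF proteins (Batf3, Jdp2, Atf2, Maff and Mafk among them), 2 rose and 0 fell in the pooled test, beside 2.34% and 1.15% of all tested genes, with a median difference of 0.04. They were Maff, from 9.79 ± 1.22 FPKM in C57-non-IR to 48.1 ± 31.8 in C57-IR hearts (SD, n = 3), and Mafk, from 18.4 ± 1.30 to 38.5 ± 15.9. Small MAF proteins lack a transactivation domain and pair with other bZIP proteins. Maff was also called in Slit2-Tg hearts alone (2.53, SE 0.45, adjusted p = 0.0421).

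Of 14 genes of the MAP kinase cascades that act upstream of AP-1, 0 were called in the pooled test in either direction in limma, 1 was higher at an unadjusted p under 0.05, beside 7.93% of all tested genes, and the median difference was 0.02. Transcript levels do not measure kinase activity, which is set by phosphorylation. Of 12 transcription factors that control these genes, 3 rose and 0 fell, beside 2.34% and 1.15% of all tested genes. They were Crem, Stat3 (0.49, SE 0.08, adjusted p = 0.00671) and Srf (0.47, SE 0.10, adjusted p = 0.0231), which encodes the factor that binds the CArG box.

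Of 16 genes known as AP-1 targets, 6 rose in the pooled test and 0 fell, where 2.34% of all tested genes rose and 1.15% fell, and their median difference was 1.07, beside 0.00 over all tested genes. The largest was Il6, an inflammatory cytokine gene, at 0.291 ± 0.154 FPKM in C57-non-IR, 15.5 ± 9.84 in C57-IR, 0.386 ± 0.291 in Slit2-non-IR and 11.2 ± 1.73 in the Slit2-IR group (SD, n = 3), with a pooled difference of 3.29 (SE 0.31, adjusted p = 0.000499). Plaur, the urokinase receptor gene, rose by 2.41 (SE 0.24, adjusted p = 0.000844) and the chemokine gene Ccl2 by 1.71 (SE 0.38, adjusted p = 0.0331). Known targets are also controlled by other factors, and whether AP-1 acted on them was not measured. Among the 9 AP-1 genes and the lists, the pooled differences are drawn gene by gene in the plot of IR effects by list.

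**Figure D5:**
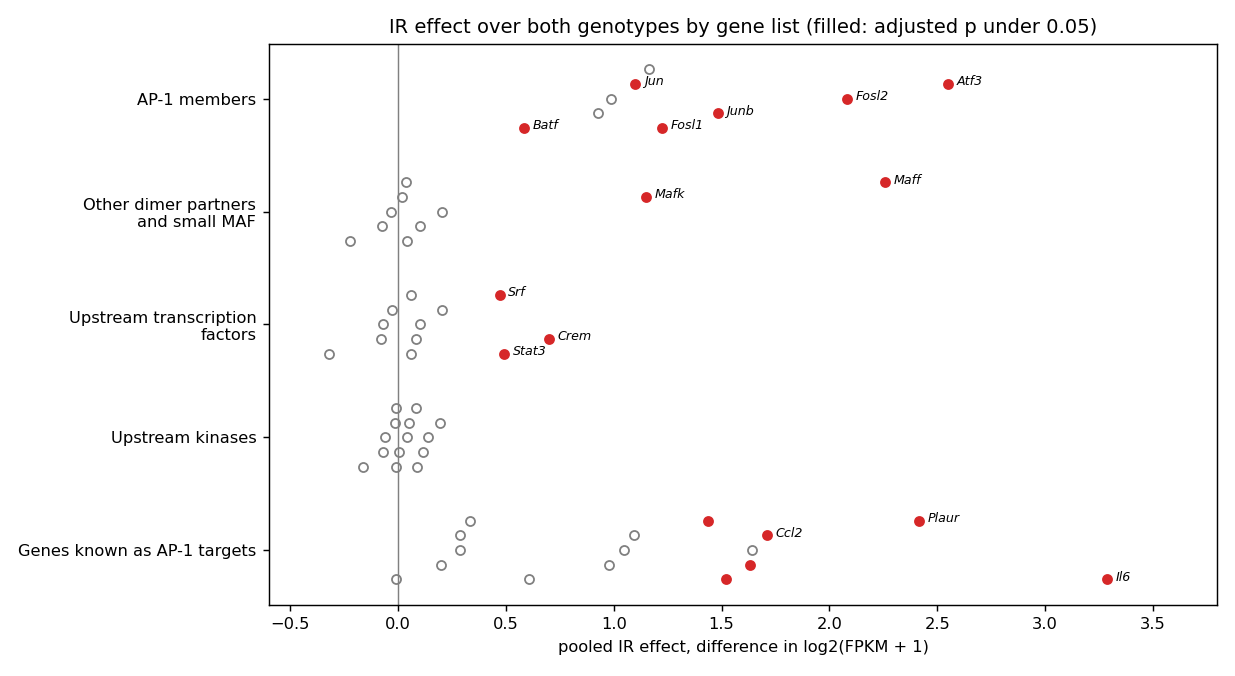
Pooled IR effect as the difference in log2(FPKM + 1) for the 9 AP-1 genes and for the tested genes of 4 lists, each point a gene, offset vertically only for legibility. Filled points have an adjusted p under 0.05, with names for the AP-1 genes among them and for at most the 3 largest in each list. That threshold was passed by 6 of 9 AP-1 genes, 2 of 10 dimer partners, 3 of 12 upstream factors, 0 of 14 kinases and 6 of 16 targets.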

How the data were processed

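The 12 libraries fall into 4 groups of 3 hearts. Genotype is stated in the sample labels, and the letters of each title were matched to the IR and non-IR groups of the methods. The series describes the hearts as independent samples, and the main test treats them so. Its p-values measure the spread between hearts under that assumption. Deviations of same-numbered libraries from their group means correlated at 0.038 to 0.362, all above 0, so the assumption may not hold in full. An NEBNext Ultra RNA kit was used with paired-end sequencing, and the submitters' processing notes name HISAT2 and mm10. How reads were counted, with which annotation and whether by strand, is not given in the sources used here. The authors deposited FPKM values for each gene and library, with GRCm38 coordinates and a transcription factor family. Within a library the product of FPKM and gene length took only whole multiples of a fixed step (100% of values, within 0.01 reads), and these steps followed median-of-ratios size factors, so reads could be recovered. There were 0 unused columns of per-library values. Libraries of a group differed by more than counting noise (chi-square per gene 8.26 to 52.3).

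The test was limma with a variance trend on log2(FPKM + 1) over all 12 libraries and 4 groups, without covariates, and p-values were adjusted over 15240 genes by the Benjamini-Hochberg method. The plan allowed for counts or FPKM, and the files hold FPKM. Genes were tested if at least 3 libraries reached 10 reads on the scale of the median library and all libraries together held 15. Differences on this scale understate changes of low genes, and an exact permutation test of 3 against 3 cannot give a p below 0.1. The fit was also run on simulated data with the same spread setting for all genes and independent libraries, a simpler setting than these hearts. Intervals are 95% intervals of limma. The AP-1 genes, gene lists, markers and tests were chosen with earlier results of these data known. All 9 AP-1 genes are described, each with the 3 tested genes of highest correlation, and from each list at most the 4 largest called differences in a direction. Some genes of these lists are counted but not reported here by name. The list of upstream factors held current and older symbols of 2 genes, and the files hold these under the older ones, Mkl1 and Mkl2, both of which are among the 12 genes counted.

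Deviations from group means were correlated between same-numbered libraries. For replicates 1, 2 and 3 the correlations were 0.291, 0.294 and 0.143 between Slit2-IR and Slit2-non-IR hearts. Between Slit2-IR and C57-IR hearts they were 0.285, 0.154 and 0.362, and between C57-IR and C57-non-IR hearts 0.295, 0.126 and 0.083. Slit2-non-IR with C57-non-IR hearts gave 0.324, 0.038 and 0.105. The correlations were not tested, and the replicate number served as a block in an alternative fit. Other alternatives were a pseudocount of 0.1, a filter of only 1 read, a filter of 10 reads in each library, the 6 compared libraries alone, TMM scaling, limma-voom on the recovered reads and each library left out. Leaving out both libraries with atrial markers was added after seeing the data. Promoters came from RefSeq (GRCm38.p6) and exons from GENCODE M21. Computations used limma 3.58.1 in R 4.3.3, with pandas 2.3.3 and matplotlib 3.10.9 under Python 3.11.15.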

Additional observations from a re-analysis of the deposited data

How the results depend on the processing

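The direction of all 27 IR differences of the 9 AP-1 genes held under every alternative run. In the 528 refits of these differences, 468 kept their side of the threshold, 15 passed it and 45 fell short of it. With no filter beyond 1 read, the count of called genes was 0 in C57BL/6J and 1 in Slit2-Tg hearts, beside 2 in each. In the pooled test that filter gave 4, without Junb and Batf, beside 6. The differences were the same, the unadjusted p rose as well (for Fosl2 in C57BL/6J from 1.01e-05 to 2.79e-05), and the cause was not tested. With only the 6 libraries compared, the C57BL/6J count was 1 (Fosl2), and the reason was not tested. Leaving out 1 library at a time gave 0 to 4 in C57BL/6J, 0 to 3 in Slit2-Tg and 4 to 7 in the pooled test. Leaving out both libraries with atrial markers gave 0 in C57BL/6J hearts, with differences of 1.84 for Fosl2 and 2.18 for Atf3, beside 2.07 and 2.58. The replicate block gave 4 in Slit2-Tg hearts, 2 in C57BL/6J hearts and 9 in the pooled test, beside 6 without it. The labels name no shared litter or day, and the correlations between same-numbered libraries were uneven, at 0.038 to 0.362. All genotype and interaction counts stayed at 0 under every alternative. TMM scaling moved libraries by at most 0.028 on the log2 scale and dropped Batf from the pooled count (5). Depth limits Batf most, which could not be fitted with at least 10 reads in every library, when Fosb was called and the pooled count was again 6.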
